A study of Mus musculus with 8 samples.

Results

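The acute phase genes whose RNA can be made in the lung itself were followed here as a set of Saa1, Saa2, Saa3, Hp, Lrg1, Orm1, Ptx3, Steap4, Itih4 and Pigr. They were set by name, with earlier results of these data known, and make up 10 of the 24584 genes in the table. RNA from whole lungs of male ICR mice, an outbred stock labelled as wild type and 6 to 8 weeks old, was sequenced on an Illumina NovaSeq instrument. All 8 mice received 5 mg/kg of lipopolysaccharide (LPS) of Escherichia coli O111:B4 by intraperitoneal injection, and the lungs were taken 12 h later. The 4 mice of the LPS group received LPS, and the 4 mice of the LPS + Tan group were also given 50 mg/kg of tangeretin, a citrus polymethoxyflavone, 30 min before it. Untreated lungs and lungs given tangeretin alone were not analysed here, so the values compare LPS-exposed groups with each other and do not measure induction by LPS.

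The acute phase response is the change in plasma proteins that follows infection or injury. Cytokines such as interleukin 6, interleukin 1 and oncostatin M act through receptors that use STAT3, C/EBP and NF-kB factors, and the liver is the main producer of the resulting proteins, although lung epithelium, macrophages and stromal cells make several of them. The serum amyloid A proteins are small apolipoproteins, haptoglobin (Hp) binds free haemoglobin, and pentraxin 3 (Ptx3) is a pattern recognition molecule that binds microbes and complement C1q. In whole-lung RNA, fewer cells of a type and less RNA per cell cannot be told apart.

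The libraries held 38895654 to 39931970 counted reads and their scaling factors lay between 0.959 and 1.05. All 10 members passed the filter on low counts, as did 15706 genes in all. Levels between samples are given as CPM, the counts scaled to library totals corrected by the scaling factors. Levels between genes are given as FPKM, scaled by the authors to library size and transcript length. The study's thresholds were an unadjusted p below 0.05 with a log2 fold change beyond 1 in size. Adjusted p values were taken over all 15706 genes by the Benjamini-Hochberg method, except where another setting is named. Each gene was also given an exact two-sided permutation test of its mean log2(CPM + 0.1), added after the data were seen, in which 4 against 4 lungs allow 70 arrangements and no p below 0.0286. The labels do not tie the samples to separate litters or days, so p-values measure the spread between these 8 mice only.

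Saa1 and Saa2 are neighbouring near-copies, and the text on them turns on how far their sequences differ. Their genes lie head to head on chromosome 7 of GRCm38, Saa1 at chr7:46740497-46742980 on the minus strand and Saa2 at chr7:46751790-46754313 on the plus strand, with 8.8 kb between their 5′ ends. The cluster of Saa3, Saa4, Saa1 and Saa2 spans 42.3 kb. The coding regions of 366 bases are 95.1% identical. The window below runs from coding base 70 to 189 of each transcript and holds 12 of the 18 differences, which are in capitals.
Saa1: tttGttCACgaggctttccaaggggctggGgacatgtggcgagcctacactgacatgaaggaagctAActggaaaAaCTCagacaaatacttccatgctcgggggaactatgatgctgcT
Saa2: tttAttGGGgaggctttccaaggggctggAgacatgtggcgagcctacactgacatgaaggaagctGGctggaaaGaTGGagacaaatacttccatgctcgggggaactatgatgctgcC
Of the 560 windows of 50 bases in Saa1, 13.2% also occur in Saa2, and none of its 510 windows of 100 bases do. Reads of about 50 bases in the shared stretches could be placed in either gene.

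The promoters were printed to show how far this likeness reaches upstream. RefSeq promoters on GRCm38.p6 were available for 8 of the 10 members, and each window holds the 250 bases before the RefSeq start. That start can differ from the GENCODE gene ends, so the Saa2, Saa3, Lrg1 and Steap4 windows run some bases into the gene as positioned by GENCODE. The searched motifs were TTGCNNAA (C/EBP), TTCNNNGAA (STAT) and GGNNTTTCC (NF-kB), read on both strands, and matches are in capitals. The Saa1 window is chr7:46742981-46743230 on the minus strand, the Saa2 window chr7:46751583-46751832 on the plus strand, the Saa3 window chr7:46715677-46715926 on the minus strand and the Steap4 window chr5:7960222-7960471 on the plus strand.
Saa1: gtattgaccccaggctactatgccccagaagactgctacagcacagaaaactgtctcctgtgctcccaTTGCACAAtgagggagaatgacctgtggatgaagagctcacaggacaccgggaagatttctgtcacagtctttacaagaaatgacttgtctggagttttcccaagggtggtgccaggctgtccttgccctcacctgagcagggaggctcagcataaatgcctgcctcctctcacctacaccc
Saa2: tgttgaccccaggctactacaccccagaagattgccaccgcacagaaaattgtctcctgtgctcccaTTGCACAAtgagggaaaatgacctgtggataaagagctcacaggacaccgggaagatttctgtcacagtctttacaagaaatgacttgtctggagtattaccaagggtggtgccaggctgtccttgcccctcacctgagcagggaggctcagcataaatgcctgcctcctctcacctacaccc
Saa3: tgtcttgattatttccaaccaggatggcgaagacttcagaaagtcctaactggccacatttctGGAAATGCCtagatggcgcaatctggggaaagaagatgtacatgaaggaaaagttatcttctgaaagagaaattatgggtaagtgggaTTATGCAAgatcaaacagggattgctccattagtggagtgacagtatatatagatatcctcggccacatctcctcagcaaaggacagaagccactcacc
Steap4: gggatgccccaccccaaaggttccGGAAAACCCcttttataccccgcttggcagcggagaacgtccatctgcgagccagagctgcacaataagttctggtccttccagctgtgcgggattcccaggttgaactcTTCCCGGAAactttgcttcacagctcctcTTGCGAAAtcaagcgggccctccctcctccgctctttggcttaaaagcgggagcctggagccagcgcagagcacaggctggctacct
The Saa1 and Saa2 windows were 94.8% identical, and both held the same C/EBP match, TTGCACAA, which begins 182 and 183 bases before the start. The Saa1 and Saa3 windows were 52.2% identical, and the Saa3 window held a C/EBP and an NF-kB match. Steap4 was the only one of the 8 windows with a match to all 3 motifs. Itih4 held a STAT match and Ptx3 a C/EBP match, while the Lrg1 and Pigr windows held none of these letters. Over all 32851 promoters, 9.56% held the C/EBP letters, 7.02% the STAT letters and 4.93% the NF-kB letters.

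Saa3 was by far the most abundant member per length. Its mean was 7894 ± 934 FPKM (SD, n = 4) in LPS and 6205 ± 955 FPKM in LPS + Tan, and it ranked 2 or 3 of all genes in every sample. Hp, at 1344 ± 203 and 1138 ± 333 FPKM, ranked between 19 and 28. These ranks put both among the most abundant transcripts of the LPS-exposed lung. The members together took 0.496% to 0.812% of all counted reads, and Saa3 alone 0.283% to 0.473%.

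The other members followed at far lower levels, with means over the 8 samples of 126 FPKM for Saa1, 104 for Lrg1, 95.6 for Pigr, 80.7 for Steap4, 71.6 for Itih4, 46.5 for Orm1, 39.7 for Saa2 and 18.9 for Ptx3. The order of Saa3, Hp and Saa1, and of Saa2 and Ptx3, held in 8 of 8 samples. The neighbours in between changed places in at least 1 sample. Itih4 was above Orm1 in 7 of 8 samples. Saa1 was above Lrg1, Lrg1 above Pigr and Pigr above Steap4 in 6 of 8 each, Orm1 above Saa2 in 5 of 8 and Steap4 above Itih4 in 4 of 8.

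**Figure D1:**
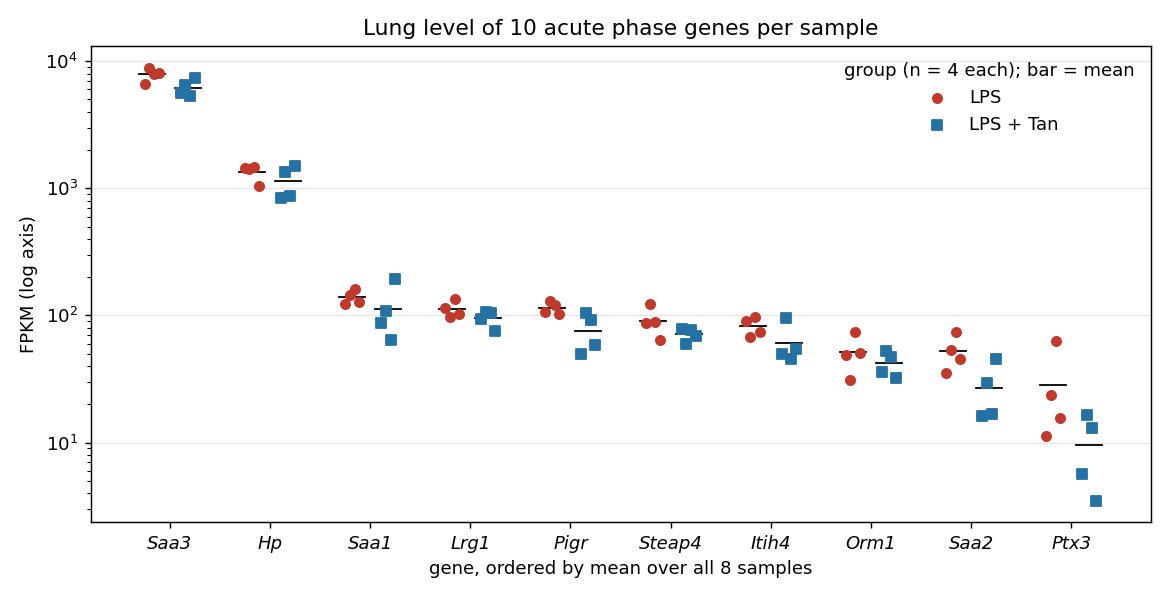
Level of the 10 members in each of the 8 lungs, in FPKM on a log axis, with red circles for LPS, blue squares for LPS + Tan and bars for group means (n = 4 each). Saa3 lies between 5330 and 8907 FPKM and Ptx3 between 3.49 and 63.0 FPKM.

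The comparison of LPS + Tan with LPS asked which lung transcripts differ when tangeretin precedes LPS. All 10 members had a lower fitted level in LPS + Tan, where 48.2% of all tested genes did, and their median log2 fold change was -0.39 against 0.01 over all genes. Saa2, Saa3, Ptx3, Steap4 and Pigr fell at an unadjusted p below 0.05, a call that 2.25% of tested genes shared in the lower direction and 2.87% in the higher. Ptx3 alone was past the study's thresholds, which 0.299% of tested genes passed in the lower direction. No member, and 0% of all tested genes, was below 0.05 after adjustment by the edgeR quasi-likelihood test, while 804 genes had an unadjusted p below 0.05. After adjustment the edgeR likelihood ratio test called 23 genes, none of them a member. DESeq2, run without the filter on low counts, called 35 genes after adjustment, none of them a member. By the exact permutation test 1 member, Pigr, was below 0.05, a call that 1.15% of tested genes shared in the lower direction, and no gene passed after adjustment (lowest adjusted p = 0.944). On library totals alone, 653 genes were higher and 239 lower at an unadjusted p below 0.05, against 451 and 353 with the scaling used here. The members' direction held under every scaling tried.

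The count of 5 members rested on the model and on single mice. It was 1, Pigr, without LPS replicate 3, and 2 without LPS + Tan replicate 1 (Steap4 and Pigr) or replicate 3 (Ptx3 and Pigr).

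**Figure D2:**
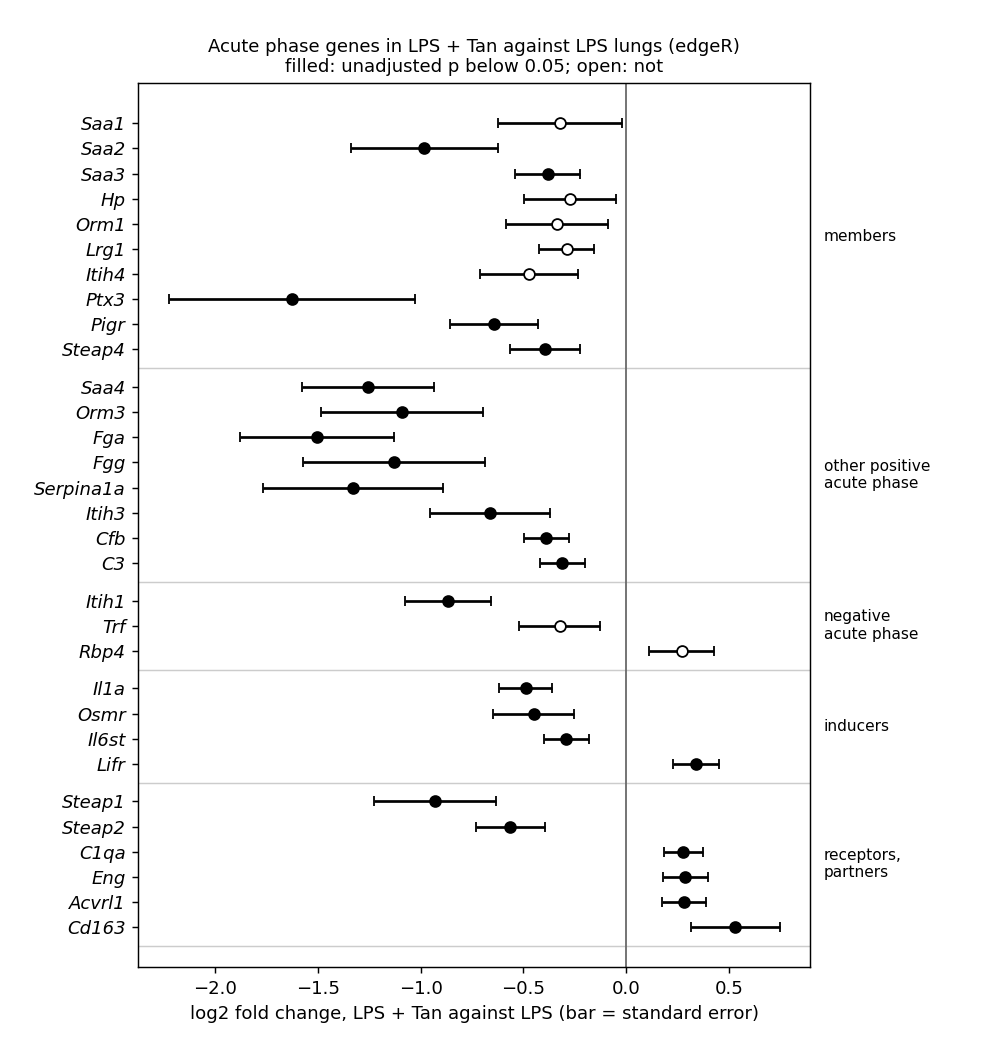
Log2 fold change of LPS + Tan against LPS with its standard error (edgeR, n = 4 per group), for the members and for the named genes of the other lists; filled points had an unadjusted p below 0.05. All 10 members lie left of 0, from -0.27 for Hp to -1.63 for Ptx3.

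The serum amyloid A genes had fitted log2 fold changes of -0.98 for Saa2, -0.38 for Saa3 and -0.32 for Saa1. Saa2, a circulating apolipoprotein of high-density lipoprotein, had 29.7, 43.9, 64.3 and 38.1 CPM in LPS replicates 1 to 4 and 12.9, 24.1, 13.2 and 38.8 CPM in LPS + Tan replicates 1 to 4. LPS + Tan replicates 1, 2 and 3 lay below every LPS lung and replicate 4 lay within their range. The log2 fold change was -0.98 ± 0.36 (SE), or 50.6% of the LPS level (edgeR adjusted p = 0.924, exact permutation p = 0.0857). The edgeR call was lost without LPS replicate 3 and without LPS + Tan replicate 1 or 3.

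Saa1, its near-copy with the same role, gave 128, 147, 175 and 132 CPM in LPS and 86.7, 111, 63.1 and 205 CPM in LPS + Tan. LPS + Tan replicate 4 was the highest of the 8 and the other treated lungs were the lowest. Its fitted difference was -0.32 ± 0.30 on the log2 scale (edgeR adjusted p = 0.958, exact permutation p = 0.286). It was -0.74, past an unadjusted p of 0.05 in edgeR, without LPS + Tan replicate 4, and -0.20 and -0.12 without LPS + Tan replicates 1 and 3.

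Saa3, the form made largely outside the liver by macrophages, epithelium and fat, gave 3586, 4696, 4423 and 4305 CPM in LPS and 2878, 3423, 2686 and 4066 CPM in LPS + Tan. The groups overlapped only through LPS replicate 1 and LPS + Tan replicate 4. This gave a log2 fold change of -0.38 ± 0.16 (edgeR adjusted p = 0.924, exact permutation p = 0.0571). The edgeR call was lost without LPS replicate 2, 3 or 4 and without LPS + Tan replicate 1 or 3. Saa4, the constitutive member of the same cluster and no member of the 10, was at 4.27 ± 1.68 and 1.79 ± 0.51 CPM (SD, n = 4), with a log2 fold change of -1.26.

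Saa1 and Saa2 were further compared by the ratio of their counts within each lung, which does not depend on library scaling. There were 4.32, 3.34, 2.72 and 3.48 Saa1 counts per Saa2 count in LPS, and 6.70, 4.61, 4.77 and 5.28 in LPS + Tan. Every LPS + Tan lung was above every LPS lung. The log2 ratio was 1.774 ± 0.27 in LPS and 2.401 ± 0.24 in LPS + Tan (SD, n = 4), a difference of 0.63 (two-sided exact permutation test, p = 0.0286, the smallest that 70 arrangements allow). Reads of the shared stretches could be split between both genes, and how they were counted is not given in the sources used here.

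**Figure D3:**
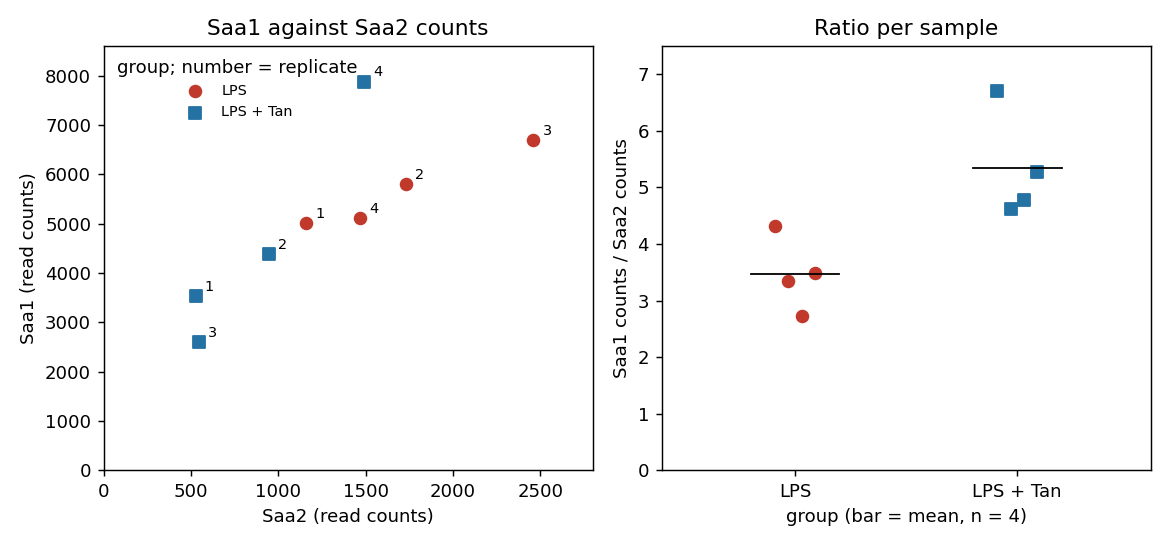
Left, read counts of Saa1 against Saa2 in each lung with the replicate number; right, Saa1 counts per Saa2 count by group, with bars for means (n = 4). The LPS lungs lie between 2.72 and 4.32 and the LPS + Tan lungs between 4.61 and 6.70.

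Across the 8 lungs the serum amyloid A genes were positively correlated, past the adjusted threshold by Pearson r and not by Spearman rho. Saa2 and Saa3 had a Pearson r of 0.954 in log2 CPM (exact permutation p = 0.000694, adjusted over 45 member pairs 0.0313) and a Spearman rho of 0.929 (exact permutation p = 0.00223, adjusted 0.1004). Without the 2 lungs farthest from the median r was 0.839, and within the groups it was 0.703 in LPS and 0.986 in LPS + Tan. Saa1 and Saa2 gave r = 0.895 (exact permutation p = 0.00357, adjusted 0.0428) and rho = 0.905 (exact permutation p = 0.00456, adjusted 0.103), with r = 0.994 without the 2 farthest lungs and 0.975 and 0.948 within the groups. Saa1 and Saa3 gave r = 0.873 (exact permutation p = 0.00439, adjusted 0.0428) and rho = 0.833 (exact permutation p = 0.0154, adjusted 0.138), with r = 0.909 without the 2 farthest lungs and 0.583 and 0.983 within the groups. The 2 farthest lungs were picked by the median of 1 gene of each pair and can differ between pairs. That gene was Saa2 for Saa2 with Saa3, and Saa1 for the pairs with Saa1. The values compared come from the same libraries.

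Hp, on chromosome 8 at chr8:109575128-109579172, gave 1964, 1892, 2076 and 1413 CPM in LPS and 1105, 1786, 1105 and 2088 CPM in LPS + Tan. LPS + Tan replicates 1 and 3 were the lowest of the 8 and replicate 4 was the highest, so the groups overlapped. Its log2 fold change was -0.27 ± 0.22 (edgeR adjusted p = 0.944, exact permutation p = 0.286). It was -0.15 without LPS + Tan replicate 1 or 3 and -0.46 without LPS + Tan replicate 4. Hp varied with Saa1, with r = 0.872 (exact permutation p = 0.00372, adjusted over 45 pairs 0.0428; rho = 0.857, exact permutation p = 0.0107, adjusted 0.121), r = 0.796 without the 2 farthest lungs and 0.536 and 0.908 within the LPS and LPS + Tan groups. The 2 farthest lungs were picked here by the serum amyloid A gene of each pair. The correlation of Hp with Saa3, r = 0.750 (exact permutation p = 0.0372, adjusted over 45 pairs 0.167; rho = 0.595, exact permutation p = 0.132, adjusted 0.372), was -0.0436 without the 2 farthest lungs. It was -0.119 within LPS and 0.969 within LPS + Tan. With Saa2, Hp gave r = 0.833 (exact permutation p = 0.0108, adjusted over 45 pairs 0.0656; rho = 0.786, exact permutation p = 0.0279, adjusted 0.157), which was 0.274 without the 2 farthest lungs and 0.337 and 0.984 within LPS and LPS + Tan.

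Orm1 and Lrg1 are secreted glycoproteins. Orm1 encodes alpha-1-acid glycoprotein, which binds lipophilic compounds, and Lrg1 acts on TGF-beta signalling in endothelium. Orm1 gave 38.3, 23.8, 60.4 and 39.95 CPM in LPS and 27.3, 40.6, 34.8 and 25.9 CPM in LPS + Tan, with overlapping groups. Its log2 fold change was -0.34 ± 0.25 (edgeR adjusted p = 0.936, exact permutation p = 0.457). Without LPS replicate 3 it was -0.08, and without LPS replicate 2 it was -0.53 and called at an unadjusted p below 0.05. Orm1 lies at chr4:63344560-63348163 in a 21.3 kb cluster with Orm3 and Orm2. Of its windows of 50 bases 20.4% also occur in Orm2, and of those of 100 bases 7.0%. How reads of such stretches were counted is not given in the sources used here, so its counts there are uncertain.

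Lrg1 gave 158, 131, 189 and 140 CPM in LPS and 123, 144, 133 and 105 CPM in LPS + Tan, and the groups overlapped. The fitted difference was -0.29 ± 0.13 on the log2 scale (edgeR adjusted p = 0.924, exact permutation p = 0.143). It was -0.18 without LPS replicate 3, and was called at an unadjusted p below 0.05 without LPS replicate 2 (-0.36) or LPS + Tan replicate 2 (-0.36). LPS replicate 3 was the highest of the 8 lungs for both genes. Orm1 and Lrg1 varied together, with r = 0.875 (exact permutation p = 0.0057, adjusted over 45 pairs 0.0428; rho = 0.857, exact permutation p = 0.0107, adjusted 0.121), r = 0.889 without the 2 farthest lungs and 0.903 and 0.921 within the groups. The 2 farthest lungs were picked by Orm1.

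Itih4, at chr14:30886476-30902353, encodes an inter-alpha-trypsin inhibitor heavy chain. It gave 291, 214, 319 and 236 CPM in LPS and 153, 299, 135 and 176 CPM in LPS + Tan. LPS + Tan replicates 1, 3 and 4 were below every LPS lung and LPS + Tan replicate 2 was above 3 of them. On the log2 scale the difference was -0.47 ± 0.24 (edgeR adjusted p = 0.924, exact permutation p = 0.143). Without LPS + Tan replicate 2 it was -0.77 and called at an unadjusted p below 0.05. Its neighbours Itih3 and Itih1, within 56.8 kb, had log2 fold changes of -0.66 and -0.87, both at an unadjusted p below 0.05, at mean levels of 0.90 to 2.74 CPM.

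Ptx3 varied most between lungs. It gave 21.8, 44.9, 126 and 30.2 CPM in LPS and 10.5, 31.3, 23.5 and 6.91 CPM in LPS + Tan. LPS replicate 3 was far above the rest, while LPS + Tan replicates 1 and 4 were below every LPS lung. The log2 fold change was -1.63 ± 0.60 (edgeR adjusted p = 0.924, exact permutation p = 0.143). It was -0.84 and no longer called in edgeR without LPS replicate 3, and the call was also lost without LPS + Tan replicate 1 or 4. Ptx3 lies on the plus strand at chr3:66219910-66225805 inside Veph1, which is on the minus strand and was higher in LPS + Tan (4.64 and 11.03 CPM, log2 fold change 1.25). Use of strand in the counting is unknown, and only whole gene spans were compared, not exons. Whether reads of Ptx3 and Veph1 were mixed was therefore not tested.

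The polymeric immunoglobulin receptor Pigr carries IgA and IgM across epithelium. It gave 419, 492, 489 and 399 CPM in LPS and 185, 398, 338 and 231 CPM in LPS + Tan. Every treated lung was below every LPS lung, by a margin of only 399.25 against 397.95 CPM, and the groups overlapped when scaled by library totals alone. Such separation in the lower direction was seen for 1.15% of tested genes. The log2 fold change was -0.64 ± 0.22, or 64.0% of the LPS level (edgeR adjusted p = 0.924, exact permutation p = 0.0286). Its unadjusted p was below 0.05 in all 17 alternative settings planned, which was so for no other member. Pigr lies at chr1:130826684-130852249. Pigr and Ptx3 gave r = 0.849 (exact permutation p = 0.00551, adjusted over 45 pairs 0.0428; rho = 0.786, exact permutation p = 0.0279, adjusted 0.157), with r = 0.933 without the 2 farthest lungs and 0.755 and 0.872 within LPS and LPS + Tan. The 2 farthest lungs were picked by Ptx3.

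Steap4, at chr5:7960457-7982213, encodes a membrane metalloreductase that reduces iron and copper. It gave 277, 382, 293 and 202 CPM in LPS and 237, 187, 227 and 224 CPM in LPS + Tan. LPS replicate 4 lay within the treated range. This was a log2 fold change of -0.40 ± 0.17 (edgeR adjusted p = 0.924, exact permutation p = 0.114), and the edgeR call held in 7 of the 17 alternative settings. It was lost without LPS replicate 1, 2 or 3 and without LPS + Tan replicate 2, 3 or 4, and the value without LPS replicate 2 was -0.24. The call was also lost on library totals alone, by limma with both pseudocounts and with the replicate block.

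**Figure D4:**
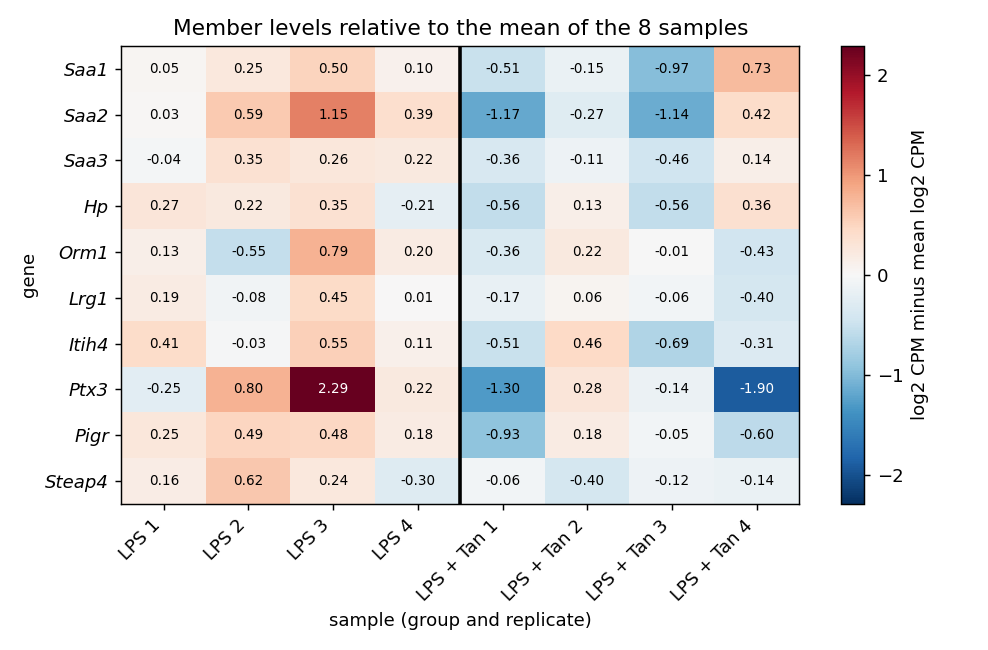
Log2 CPM of each member in each lung minus its mean over the 8 lungs, LPS to the left of the black line and LPS + Tan to the right. LPS replicate 3 holds the highest value of 5 members, and LPS + Tan replicate 4 is highest for Saa1 and Hp and lowest for Ptx3 and Lrg1.

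Other positive acute phase genes mostly had a lower fitted level in LPS + Tan. This list and those that follow were chosen with earlier results of these data known. Of 32 listed, 29 were tested and 24 had a lower fitted level in LPS + Tan, against 48.2% of all tested genes, with a median log2 fold change of -0.33 against 0.01 over all genes. Of these, 8 fell at an unadjusted p below 0.05 and none rose, where 2.25% of all tested genes fell and 2.87% rose. Fga and Fgg, fibrinogen chains, had log2 fold changes of -1.504 and -1.13 at mean levels of at most 3.28 CPM, and Serpina1a, an alpha-1-antitrypsin, -1.33 at 2.15 and 0.852 CPM. Orm3 had -1.09 at 1.05 and 0.493 CPM. The complement genes were abundant: C3 was at 2970 ± 240 and 2395 ± 152 CPM (log2 fold change -0.31), and Cfb at 705 ± 50.7 and 539 ± 64.8 CPM (-0.39). The groups of C3 did not overlap (exact permutation p = 0.0286), while those of Cfb overlapped on library totals alone. By the exact permutation test Saa4, Fga, Orm3, C3 and Cfb reached the smallest p allowed, as 1.15% of all tested genes did in the lower direction, while Fgg (0.114), Serpina1a (0.143) and Itih3 (0.0571) did not pass. By DESeq2, run without the filter on low counts, Saa4 and Fga passed an adjusted p of 0.05 (0.0422 and 0.0270). In edgeR their adjusted p was 0.850 each by the quasi-likelihood test, and 0.103 and 0.0763 by the likelihood ratio test.

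Negative acute phase genes, whose liver output drops in inflammation, were mostly near 0: 5 of 10 were tested and Alb had 5 to 26 reads per lung. Itih1 was lower in LPS + Tan, at 2.74 ± 0.28 and 1.503 ± 0.33 CPM (log2 fold change -0.87, exact permutation p = 0.0286). It passed after adjustment in DESeq2 (adjusted p = 0.0363) and not by the edgeR quasi-likelihood test (adjusted p = 0.850). Trf, transferrin, and Rbp4, the retinol carrier, had -0.32 and 0.27 and neither passed.

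Among 28 inducers and signalling genes, 21 had a lower fitted level, against 48.2% of all tested genes, with a median log2 fold change of -0.14 against 0.01. In edgeR 3 were lower and 1 higher at an unadjusted p below 0.05, where 2.25% and 2.87% of all tested genes were. Il1a, the cytokine interleukin 1 alpha, was at 17.0 ± 2.87 and 12.1 ± 0.756 CPM (log2 fold change -0.49, exact permutation p = 0.0286), Il6st, the shared receptor chain gp130, had -0.29 and Osmr, the oncostatin M receptor, -0.45. Lifr, the receptor of leukaemia inhibitory factor, rose by 0.34. By the exact permutation test Il1a and Il6st passed in the lower direction, a call that 1.15% of all tested genes shared. Lifr passed in the higher direction, as 248 of all 15706 genes did, and Osmr (0.114) did not pass. The cytokines Il6, Il1b and Tnf had -0.35, 0.13 and 0.09 and did not pass.

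Receptors and partners of the members were split, with 11 lower and 12 higher of 23 tested, where 48.2% of all tested genes were lower. Steap1 and Steap2, metalloreductases of the Steap4 family, fell by 0.93 and 0.56 on the log2 scale. Cd163, the scavenger receptor for haptoglobin bound to haemoglobin, rose by 0.53, and C1qa, a chain of the C1q that Ptx3 binds, by 0.28. Eng and Acvrl1, the endothelial TGF-beta receptor chains linked to Lrg1, rose by 0.29 and 0.28. All 6 had an unadjusted p below 0.05 in edgeR, as 2.25% of all tested genes had in the lower and 2.87% in the higher direction, and none an adjusted one. By the exact permutation test C1qa (0.0571) and Cd163 (0.143) did not pass and the other 4 did, where 181 of all 15706 genes passed in the lower and 248 in the higher direction.

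The genes whose pattern over the 8 lungs was most like that of a member were sought among 13730 tested genes with a mean of at least 1 CPM, by Pearson r of log2 CPM. The closest were Gna13 for Saa2 (r = 0.995), Cgn for Pigr (0.991), Atad1 for Saa1 (0.982), Fth1 for Hp (0.979), Zbtb25 for Lrg1 (0.979), Haus2 for Ptx3 (0.977), Il20rb for Itih4 (0.976), C1s2 for Saa3 (0.965), Cd300lf for Orm1 (0.964) and Ccdc146 for Steap4 (0.934). Jak2 was among the 3 closest for both Saa2 (0.978) and Saa3 (0.956). The others were Morf4l1 and Srsf3 for Saa1, Seh1l for Saa2, Ugcg for Saa3, Serpina3k and Nus1 for Hp, Zcchc24 and Tollip for Orm1, Pcdhgb7 and Orai2 for Lrg1, Alpl and Slc25a25 for Itih4, Slc25a12 and Gli3 for Ptx3, Fsip1 and Mdm2 for Steap4, and Gm4924 and Lrrc74b for Pigr. With 8 samples and this many candidates, high values arise readily, and they are given as a description.

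Markers of cell types that can make these proteins were summed per lung. Hepatocyte markers summed to 17.7 to 54.5 CPM in LPS and 9.97 to 33.7 CPM in LPS + Tan, of which Apob gave 8.42 to 43.7 and 3.51 to 24.1 CPM, with Ttr at 0 reads in every LPS lung and at most 3 in LPS + Tan. Alb was at 0.290 and 0.309 CPM and Cps1 had 2 reads in each group. Of the 5 hepatocyte markers tested, 2 were lower and 3 higher with a median log2 fold change of 0.16, and Tat alone passed an unadjusted p of 0.05, with a log2 fold change of -1.25. Neutrophil markers summed to 4671 to 6429 and 4432 to 6209 CPM, and none of the 13 passed.

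Airway secretory markers summed to 14180 to 19156 and 12849 to 18158 CPM, with 6 of 8 lower and a median log2 fold change of -0.21. Alveolar type 2 markers summed to 7961 to 12385 and 8215 to 13210 CPM, with 6 of 8 lower and a median of -0.05. Macrophage and monocyte markers summed to 1584 to 2571 and 1601 to 2660 CPM, with 9 of 10 higher and a median of 0.08. Endothelial markers summed to 3362 to 4131 and 3872 to 4395 CPM, with 3 lower, 5 higher and a median of 0.22. Among these 8, Kdr and Tek rose at an unadjusted p below 0.05, as 2.87% of all tested genes did. Fibroblast and pericyte markers summed to 2208 to 2728 and 1955 to 2445 CPM, with 6 of 9 lower and a median log2 fold change of -0.08. Rgs5 alone among them passed an unadjusted p of 0.05, and was higher. Mesothelial markers summed to 123 to 180.0 and 133 to 191 CPM, adipocyte markers to 4.76 to 11.1 and 3.94 to 10.1 CPM, and plasma cell markers, of which 4 of 7 were in the table, to 334 to 418 and 338 to 415 CPM. Erythroid markers, at 1426 to 3451 and 1326 to 2171 CPM, had 6 of 6 lower, where 48.2% of all tested genes were, with a median log2 fold change of -0.51 against 0.01 and none past p of 0.05. The part of these cell types in the members' values was not tested.

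**Figure D5:**
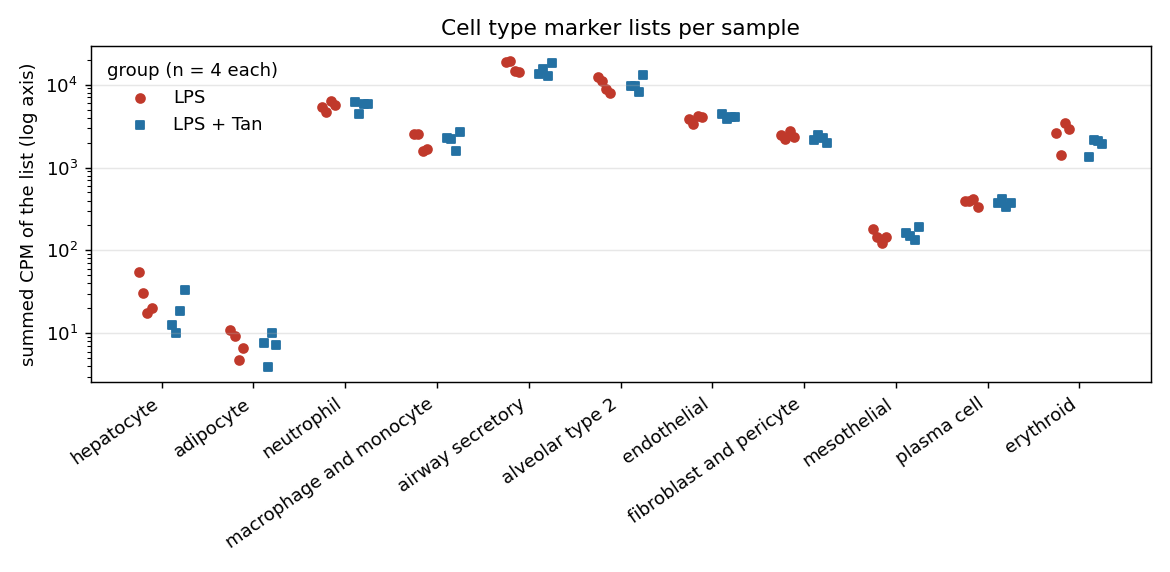
Summed CPM of each cell type marker list in each lung on a log axis, with red circles for LPS and blue squares for LPS + Tan (n = 4 each). The ranges of both groups overlap for all 11 lists, and hepatocyte and adipocyte markers lie lowest.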

How the data were processed

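Whole-lung RNA of 4 LPS and 4 LPS + Tan mice was sequenced. The authors deposited a table of read counts per gene and FPKM values, that is fragments scaled by the authors to library size and transcript length. The submitters' notes name the builds GRCm38 and mm10, and no source used here states the aligner, annotation or counter. The labels and the methods name different RNA and library kits. Counts were tested with edgeR 4.0.16 (filterByExpr, TMM scaling, quasi-likelihood test, no covariate) in R 4.3.3 over 15706 genes, with Benjamini-Hochberg adjustment, and standard errors are the log2 fold change over the root of F. DESeq2 1.42.0, edgeR's likelihood ratio test and limma 3.58.1 on log2(FPKM + 1) and log2(FPKM + 0.1) were alternatives, as were other scalings and filters, the replicate number as a block and leaving out each mouse. An exact two-sided permutation test of log2(CPM + 0.1) over 70 arrangements was added after the data were seen, since 4 mice per group call for an exact test of single genes. The test scripts were tested on simulated data. Positions came from GENCODE M21 and promoters from RefSeq, aligned with Biopython 1.88. The members and gene lists were chosen with earlier results of these data known. Named genes were the 10 members, from each pathway list the 3 of lowest p and all with an unadjusted p below 0.05, and the 3 genes most like each member; Il6, Il1b, Tnf, Veph1 and the single markers named were picked after their values were seen. No libraries were duplicates. Errors are the spread between the 4 mice of a group, and depth was near equal in all libraries.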

Additional observations from a re-analysis of the deposited data

Results flagged for a closer look

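Cfb in LPS replicate 4, at 780.8 CPM, was the highest of its group with a gap to the next lung of 0.916 of the group's range, above Dixon's critical value. Of 64 groups examined this was the 1 so marked, where about 3.2 would be by chance.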

How the results depend on the processing

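All 10 members kept a lower fitted level in LPS + Tan in every alternative, and neither they nor the genes named from the pathway lists reversed. Over the 17 planned settings the members' side of the threshold changed 21 times to not called and 8 times to called, and that of the list genes 43 times and 1 time. Calls were lost for Osmr in 9 settings, Itih3 in 8, Fgg in 7, Il6st, Cd163 and Acvrl1 in 4, Eng and Orm3 in 3 and C3 in 1. The genes most like each member, Il6, Il1b, Tnf, Veph1 and the markers were not compared across alternatives. At the study's thresholds the 102 genes became 224 by DESeq2, 418 with no filter, 41 at 1 CPM or more in 4 samples, 13 and 37 by limma on log2(FPKM + 1) and log2(FPKM + 0.1), and 75 to 238 leaving out single mice. At an adjusted p of 0.05 the 0 genes became 35 by DESeq2, 23 by the likelihood ratio test and 0 to 1 leaving out single mice. Members at an unadjusted p below 0.05 numbered 1 to 6 leaving out single mice, while 212 to 806 of all genes were lower at that p, and members past the study's thresholds 0 to 2; by limma with both pseudocounts and with the replicate block there were 2 of the latter. Same-numbered mice did not deviate together (correlations 0.182, -0.066, -0.154 and 0.0228), and 2 of 8 mice correlated best with their own number. The replicate block gave 98 genes and left the exact sign-flip p of the Saa1 to Saa2 ratio at 0.125, the smallest that 4 pairs allow, with the same difference of 0.627. Leaving out single mice gave differences of 0.513 to 0.740 with an exact permutation p of 0.0286 without an LPS mouse and 0.0571 without an LPS + Tan mouse. Limits are the 4 mice per group, the unknown counting of shared reads and the absence here of untreated lungs; depth was even. The exact permutation test, added after the data were seen, called 20 genes at the study's thresholds, 1 member (Pigr) at an unadjusted p below 0.05 and 0 members at the study's thresholds.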
